A study of Mus musculus with 12 samples.

Results

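The histone genes on the array were taken as every symbol that starts with Hist1h, Hist2h, Hist3h, Hist4h, H2af, H3f3 or H1f. That rule gave 67 of the 18138 symbols. It yielded 56 genes with Hist symbols, taken here as replication-dependent by symbol alone, and 11 genes of the variant class. The letters of the symbol divided the 56 into 6 H1, 15 H2A, 15 H2B, 9 H3 and 11 H4 genes. RefSeq annotation lists Hist3h2bb, an H2B symbol, and H2afy3, a variant symbol, as transcribed pseudogenes. RNA had been measured on 12 arrays of thymic T cells carrying both CD4 and CD8, from mice of strain C57BL6/J aged 8 to 12 weeks, with both sexes mixed at 50% each. The 4 groups had 3 arrays each: Caph2nes/nes mutant CD71-positive cells, Caph2+/+ wild-type CD71-positive cells, Caph2nes/nes mutant CD71-negative cells and Caph2+/+ wild-type CD71-negative cells. The mutant allele is given in the labels as Caph2(I15N), a missense change in the gene now called Ncaph2, whose product is the kleisin subunit of the chromosome-compacting complex condensin II. CD71 is the transferrin receptor, which dividing cells carry in quantity, and the titles give a low forward scatter gate, which selects small cells, for both subsets and both genotypes. The labels do not say whether replicates are separate animals or pools. The p-values therefore rest on the spread among the arrays of a group, and this spread may be technical.

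Histones are the proteins around which DNA is wound. H2A, H2B, H3 and H4 form the core particle and the linker histone H1 binds where DNA enters and leaves it. Replication-dependent histone genes lie in clusters, are transcribed in S phase, and give messenger RNAs that end in a stem-loop in place of a poly(A) tail and are degraded when DNA synthesis stops. Most variant genes, such as those of H2A.Z, H3.3 and macroH2A, lie alone, give polyadenylated messenger RNAs and are expressed through the cell cycle. The variant class used here was formed by symbol, and not every member, H2afx among them, need follow this description. The RNA was amplified with a kit that copies RNA from an oligo(dT) primer, so tail-less RNA is read through its polyadenylated forms or through priming at internal runs of A. How far this shapes the levels of replication-dependent genes was not tested. Copies of 1 histone gene are near identical in sequence and the file does not give its probes, so how far the array tells such copies apart was not tested either. In bulk samples such as these, fewer cells in S phase and less histone RNA per cell cannot be told apart.

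The arrays had mean signals of 95.1 to 203 and detected 5893 to 7415 symbols each (detection p under 0.05). Correlation across genes was 0.963 to 0.993 within groups and 0.843 to 0.991 between groups. Of the 67 histone genes 29 were detected on all 12 arrays and 5 on none. The 56 that were detected on at least 3 arrays were tested among 8247 genes: 3 H1, 14 H2A, 12 H2B, 8 H3, 10 H4 and 9 variant genes. The 11 others were Hist1h1d, Hist1h1e, Hist1h1t, Hist1h2aa, Hist1h2ba, Hist1h2be, Hist3h2ba, Hist1h3f, Hist4h4, H1foo and H2afy3. Because a gene may enter the test through the group in which it is high, counts are given over the 56 tested genes and again over the 29 detected on every array. Of the genes that define the sort, Tfrc (CD71), Cd4 and Cd8b1 were detected on all 12 arrays and Cd8a on 0. Values are normalized log2 signals, which run from 5.33 to 13.31 on every array, and are compared between samples for 1 gene and never between genes.

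By RefSeq annotation of GRCm38.p6, which lists all 67 symbols, 64 of them as older names, 45 histone genes lie on chromosome 13, 9 on chromosome 3, 4 each on chromosomes 6 and 11, 3 on chromosome 15 and 1 each on chromosomes 1 and 9. Promoter sequences, 250 bases before to 50 bases after the annotated start, were found for 59 of them, 58 of which contributed to the motif counts. The 3 H2A genes on which the genotype comparison turns, the linker histone gene Hist1h1c and the H2A.Z gene H2afz follow here, 5′ to 3′ on the coding strand. Capitals mark matches, on either strand, to CCAAT, to TATAAA and to TTTGCAT, 7 letters of the octamer element. Hist1h2an (H2ac22) is read from chr13:21787199-21787498 on the minus strand, Hist1h2ao (H2ac23) from chr13:21810117-21810416 on the plus strand and Hist1h2ah (H2ac12) from chr13:22035594-22035893 on the minus strand. Hist1h1c (H1f2) is read from chr13:23738557-23738856 and H2afz (H2az1) from chr3:137864237-137864536, both on the plus strand.
Hist1h2an: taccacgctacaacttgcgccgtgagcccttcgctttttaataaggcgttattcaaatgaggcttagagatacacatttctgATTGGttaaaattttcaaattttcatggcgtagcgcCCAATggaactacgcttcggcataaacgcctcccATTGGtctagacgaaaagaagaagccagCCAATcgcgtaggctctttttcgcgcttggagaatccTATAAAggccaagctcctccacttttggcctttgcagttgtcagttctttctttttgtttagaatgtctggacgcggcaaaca
Hist1h2ao: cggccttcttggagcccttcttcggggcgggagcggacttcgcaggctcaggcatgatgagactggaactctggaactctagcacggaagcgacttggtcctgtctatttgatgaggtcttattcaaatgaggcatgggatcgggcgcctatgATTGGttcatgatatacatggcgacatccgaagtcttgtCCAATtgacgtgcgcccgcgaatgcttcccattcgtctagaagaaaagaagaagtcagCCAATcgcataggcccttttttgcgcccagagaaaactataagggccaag
Hist1h2ah: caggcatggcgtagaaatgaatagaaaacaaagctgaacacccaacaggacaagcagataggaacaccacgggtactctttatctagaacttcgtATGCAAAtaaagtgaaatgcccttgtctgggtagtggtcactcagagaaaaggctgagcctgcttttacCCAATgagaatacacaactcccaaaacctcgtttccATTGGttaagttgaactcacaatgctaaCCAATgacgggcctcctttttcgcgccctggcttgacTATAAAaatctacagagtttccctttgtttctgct
Hist1h1c: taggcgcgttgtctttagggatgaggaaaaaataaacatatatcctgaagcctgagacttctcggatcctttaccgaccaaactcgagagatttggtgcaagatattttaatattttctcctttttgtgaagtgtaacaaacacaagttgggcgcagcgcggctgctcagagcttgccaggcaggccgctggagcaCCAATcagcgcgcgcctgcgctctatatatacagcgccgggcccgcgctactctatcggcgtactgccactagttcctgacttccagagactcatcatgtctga
H2afz: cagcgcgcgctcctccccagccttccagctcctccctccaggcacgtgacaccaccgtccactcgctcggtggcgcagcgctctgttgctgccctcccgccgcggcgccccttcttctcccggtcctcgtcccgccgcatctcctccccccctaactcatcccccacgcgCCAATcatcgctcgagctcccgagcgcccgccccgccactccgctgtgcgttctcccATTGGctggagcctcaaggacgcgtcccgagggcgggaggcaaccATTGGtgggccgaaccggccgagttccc

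CCAAT, the letters bound by the factor NF-Y, occurred in 41 of 49 replication-dependent promoters (83.7%), against 12289 of all 32851 promoters in the table (37.4%). All 15 H2A, all 11 H2B, all 7 H3 and all 6 H1 promoters held it, as did 2 of 10 H4 and 5 of 9 variant promoters. TATAAA occurred in 30 of 49 replication-dependent promoters (61.2%) and in 1 of 9 variant promoters, against 13.6% of all promoters. TTTGCAT, part of the element that Oct1 binds in H2B promoters, occurred in 14 of 49 (28.6%), among them 6 of 11 H2B and 7 of 15 H2A promoters, against 4.63% of all promoters. A match describes these letters in this window and is not a site. Annotated starts differ in how far they lie from the matches: TATAAA begins 33 bases before the start of Hist1h2an and 15 bases after that of Hist1h2ah. The H2A and H2B genes that face each other share promoter sequence, so their matches are partly the same letters.

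**Figure D1:**
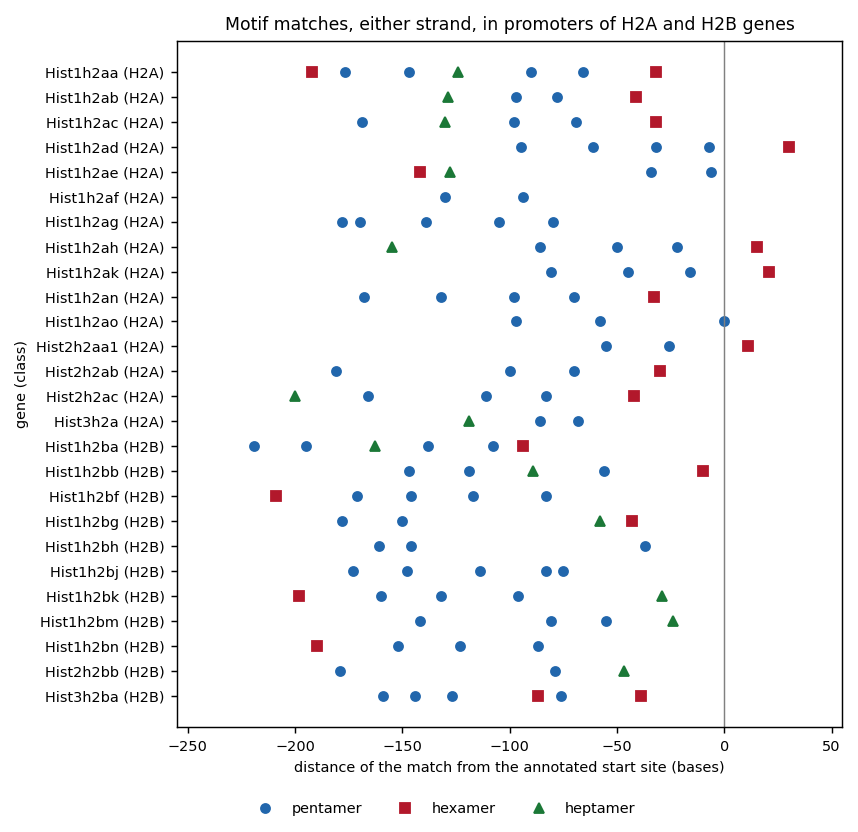
Positions of motif matches on either strand in the promoters of 15 H2A and 11 H2B genes, as the distance in bases from the annotated start (vertical line); circles mark the pentamer CCAAT, squares the hexamer TATAAA and triangles the heptamer TTTGCAT. Every row has at least 1 circle, and squares lie on both sides of the start.

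The plot of matches shows the circles mostly before the start in both classes, and squares in 11 of 15 H2A and 7 of 11 H2B promoters.

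Many histone genes were higher in the CD71-positive subset of both genotypes, with the largest number in the H2A class. In the mutant, 22 of 56 tested genes were higher (39.3%) and 4 lower (7.14%), against 14.5% and 14.3% of all 8247 tested genes, or 28.8% in either direction. In wild type, 24 of 56 were higher (42.9%) and 0 lower, against 12% and 13.1% of all tested genes, or 25.1% in either direction. The 3 CD71-positive arrays all lay above the 3 CD71-negative arrays in 24 genes and all below in 7 in the mutant, against 21.7% and 25.1% of all tested genes, and above in 31 and below in 1 in wild type, against 18.7% and 21%. Both comparisons called 21 of these genes higher, which is 21 of 22 in the mutant and 21 of 24 in wild type. Among the 29 genes detected on every array, 19 were higher and 1 lower in the mutant, and 20 were higher and 0 lower in wild type. Of 4023 genes detected on every array, 18.9% were higher and 21.4% lower in the mutant, and 16% were higher and 19.6% lower in wild type. The medians over the 56 tested genes were 0.11 in the mutant and 0.18 in wild type on the log2 scale, against -0.01 over all tested genes in each genotype. The offset added to the signal understates changes of dim genes. At an unadjusted p under 0.05, 26 genes were higher and 5 lower in the mutant, against 39.3% of all tested genes in either direction, and 28 were higher and 1 lower in wild type, against 36.1%. The 26 mutant calls in both directions became 16 with cyclic loess and 17 without mutant CD71-positive array 2.

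**Figure D2:**
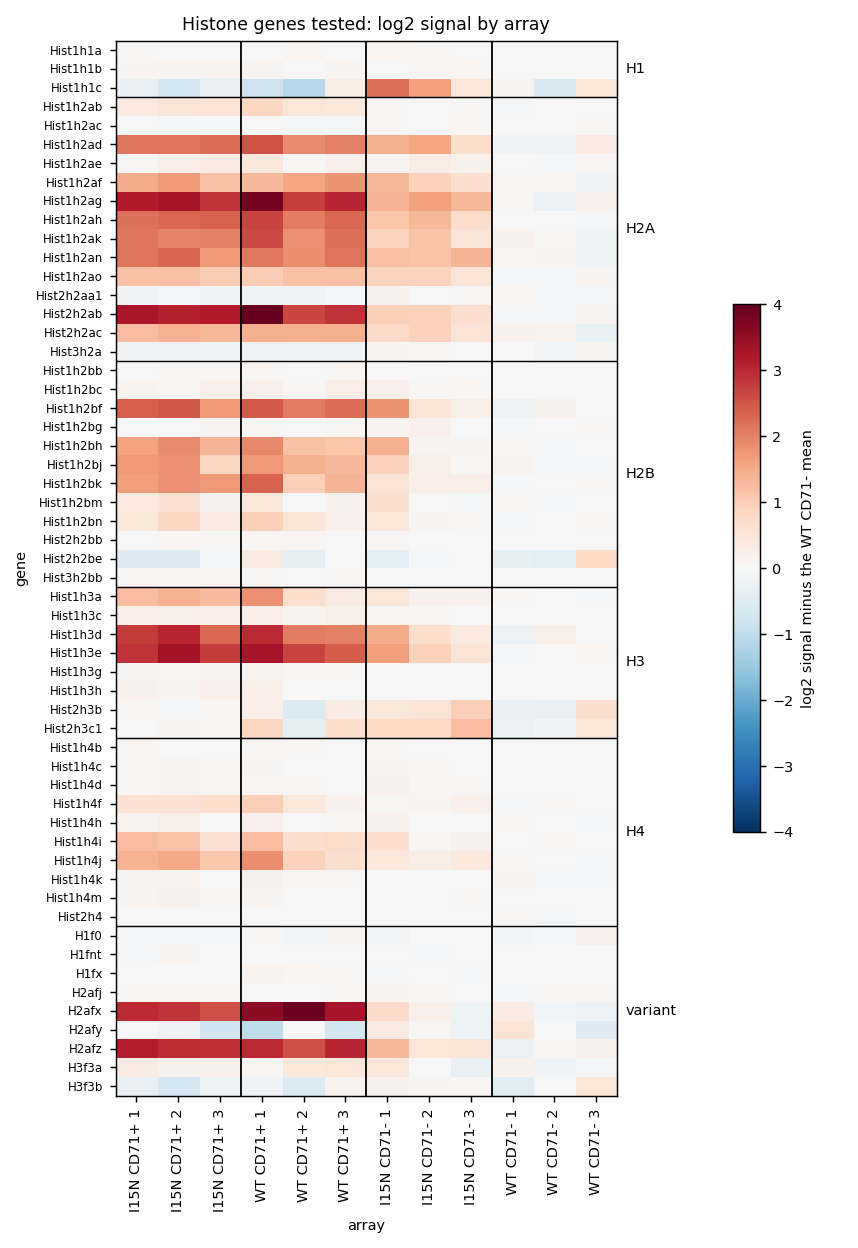
Normalized log2 signal of the 56 tested histone genes (rows, by class) on the 12 arrays (columns), as the difference from each gene's mean in wild-type (WT) CD71-negative cells; I15N marks the mutant. Red rows in the CD71-positive columns lie mostly in H2A, H2B and H3 and at H2afx and H2afz, and 9 of the 14 H2A rows, those with differences of 0.75 to 1.44, are also red in the 3 mutant CD71-negative columns.

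Of the 14 tested H2A genes, 9 were higher and 3 lower in mutant CD71-positive cells, and 10 were higher and 0 lower in wild-type CD71-positive cells. The median was 0.53 in the mutant, against 1.5 in wild type. Among all tested genes 14.5% were higher and 14.3% lower in the mutant, and 12% higher and 13.1% lower in wild type. The counts of the other classes below stand against the same shares. Hist1h2ag (H2ac11), one of the H2A copies of the large cluster on chromosome 13, read 10.03, 10.16 and 9.77 in mutant CD71-positive cells, against 8.23, 8.53 and 8.19 in mutant CD71-negative cells. In wild type it read 10.70, 9.66 and 9.94 in CD71-positive cells, against 6.91, 6.63 and 7.09 in CD71-negative cells. Every CD71-positive array lay above every CD71-negative array, by 1.67 ± 0.25 (SE) in the mutant (adjusted p = 0.000958) and 3.22 ± 0.25 in wild type (adjusted p = 2.71e-05).

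Hist1h2ah read 11.64, 11.73 and 11.77 in mutant CD71-positive cells, against 10.54, 10.74 and 10.17 in mutant CD71-negative cells. Its wild-type arrays read 12.12, 11.46 and 11.73 in CD71-positive cells, against 9.45, 9.44 and 9.38 in CD71-negative cells. The groups did not overlap in either genotype, with differences of 1.23 ± 0.17 in the mutant (adjusted p = 0.000665) and 2.35 ± 0.17 in wild type (adjusted p = 1.87e-05). For Hist1h2an the mutant arrays read 11.01, 11.17 and 10.52 with CD71, against 10.05, 9.96 and 10.19 without it. The wild-type arrays of Hist1h2an read 10.94, 10.68 and 10.98 in CD71-positive cells, against 8.90, 8.95 and 8.64 in CD71-negative cells. No groups overlapped here either, with differences of 0.83 ± 0.16 in the mutant (adjusted p = 0.00461) and 2.04 ± 0.16 in wild type (adjusted p = 3.42e-05).

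Hist1h2ao, at the bright end of the array, read 13.31, 13.31 and 13.17 in mutant CD71-positive cells, against 13.03, 13.03 and 12.70 in mutant CD71-negative cells. It read 13.17, 13.31 and 13.31 in wild-type CD71-positive cells, against 12.09, 12.09 and 12.27 in wild-type CD71-negative cells. Its differences were 0.34 ± 0.09 in the mutant (adjusted p = 0.023) and 1.11 ± 0.09 in wild type (adjusted p = 4.33e-05), again without overlap. The top of the normalized scale is 13.31, and Hist1h2ao exceeded 13 on 8 arrays and Hist2h2ac on 4, and quantile normalization sets that top for every array. Hist2h2ab, from the cluster on chromosome 3, was higher by 2.31 ± 0.28 in mutant and 3.19 ± 0.28 in wild-type CD71-positive cells. The 3 H2A genes that were lower in mutant CD71-positive cells, Hist1h2ac, Hist2h2aa1 and Hist3h2a, fell by 0.09, 0.20 and 0.21. All 3 read between 5.43 and 5.77 on every array, close to the lower end of the scale.

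Of the 12 tested H2B genes, 4 were higher in CD71-positive cells of each genotype and 0 lower. They were Hist1h2bf, Hist1h2bh, Hist1h2bj and Hist1h2bk. Hist1h2bk read 7.33, 7.48 and 7.39 in mutant CD71-positive cells, against 6.21, 5.93 and 5.94 in mutant CD71-negative cells. It read 8.01, 6.61 and 7.01 in wild-type CD71-positive cells, against 5.61, 5.68 and 5.70 in wild-type CD71-negative cells. Neither pair of groups overlapped, and the differences were 1.37 ± 0.28 in the mutant (adjusted p = 0.00613) and 1.55 ± 0.28 in wild type (adjusted p = 0.00362). Hist1h2bf read 8.39, 8.48 and 7.73 in mutant CD71-positive cells, against 7.82, 6.53 and 6.24 in mutant CD71-negative cells. It read 8.46, 8.09 and 8.26 in wild-type CD71-positive cells, against 5.81, 6.19 and 6.04 in wild-type CD71-negative cells. Here the first mutant CD71-negative array overlapped the CD71-positive arrays, and the differences were 1.34 ± 0.37 in the mutant (adjusted p = 0.0245) and 2.25 ± 0.37 in wild type (adjusted p = 0.00196).

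Hist1h2bj read 7.54, 7.66 and 6.63 in mutant CD71-positive cells, against 6.73, 6.05 and 5.84 in mutant CD71-negative cells. It read 7.53, 7.22 and 7.11 in wild-type CD71-positive cells, against 5.94, 5.76 and 5.74 in wild-type CD71-negative cells. The mutant groups overlapped at 1 array each and the wild-type groups did not, with differences of 1.07 ± 0.29 in the mutant (adjusted p = 0.0233) and 1.47 ± 0.29 in wild type (adjusted p = 0.00549). Hist1h2bh read 7.39, 7.67 and 7.13 in mutant CD71-positive cells, against 7.19, 5.89 and 5.89 in mutant CD71-negative cells. It read 7.69, 6.95 and 6.86 in wild-type CD71-positive cells, against 5.81, 5.71 and 5.79 in wild-type CD71-negative cells. The first mutant CD71-negative array again stood with the CD71-positive ones, and the differences were 1.07 ± 0.35 in the mutant (adjusted p = 0.0483) and 1.40 ± 0.35 in wild type (adjusted p = 0.0179). The mutant call of Hist1h2bh was lost under 14 of 22 alternatives. The other H2B genes differed by -0.22 to 0.56 across both genotypes and did not pass the threshold.

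Of the 8 tested H3 genes, 5 were higher in mutant and 4 in wild-type CD71-positive cells, and 0 were lower in either. The gene called in the mutant alone was Hist1h3g, which was detected on 5 arrays, all of them CD71-positive. It was at least 1.059-fold higher in the mutant (adjusted p = 0.00959) and at least 1.042-fold higher in wild type (adjusted p = 0.0586). Hist1h3e (H3c6) read 9.09, 9.52 and 8.99 in mutant CD71-positive cells, against 7.87, 7.11 and 6.74 in mutant CD71-negative cells. It read 9.50, 8.89 and 8.62 in wild-type CD71-positive cells, against 6.14, 6.17 and 6.27 in wild-type CD71-negative cells. The groups stood apart in both genotypes, by 1.96 ± 0.30 in the mutant (adjusted p = 0.00116) and 2.81 ± 0.30 in wild type (adjusted p = 0.000169). Hist1h3d (H3c4) read 8.70, 8.95 and 8.18 in mutant CD71-positive cells, against 7.39, 6.6 and 6.30 in mutant CD71-negative cells. It read 8.88, 7.93 and 7.90 in wild-type CD71-positive cells, against 5.67, 6.14 and 5.87 in wild-type CD71-negative cells. Its arrays did not overlap either, with differences of 1.85 ± 0.35 in the mutant (adjusted p = 0.00369) and 2.34 ± 0.35 in wild type (adjusted p = 0.00113).

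Hist1h3a read 6.79, 6.95 and 6.80 in mutant CD71-positive cells, against 6.03, 5.73 and 5.73 in mutant CD71-negative cells. It read 7.37, 6.26 and 5.90 in wild-type CD71-positive cells, against 5.59, 5.58 and 5.49 in wild-type CD71-negative cells. The wild-type CD71-positive arrays were spread widest, and the differences were 1.02 ± 0.30 in the mutant (adjusted p = 0.0325) and 0.96 ± 0.30 in wild type (adjusted p = 0.0452). The wild-type call of Hist1h3a was lost under 13 of 22 alternatives and the mutant call under 7. Hist1h3c was detected in no CD71-negative array, and like Hist1h3g it entered the test through CD71-positive arrays alone. It read 5.65, 5.62 and 5.66 in mutant CD71-positive cells, against 5.42, 5.42 and 5.38 in mutant CD71-negative cells, which makes it at least 1.17-fold higher (adjusted p = 0.000233). In wild type it read 5.64, 5.54 and 5.61 in CD71-positive cells, against 5.40, 5.38 and 5.38 in CD71-negative cells, at least 1.13-fold higher (adjusted p = 0.000541). These bounds set the mean of the brighter group against the higher, on each array, of the dimmer reading and the lowest detected signal. Hist2h3b and Hist2h3c1, H3 genes of the chromosome 3 cluster, had mutant differences of -0.63 ± 0.30 and -0.89 ± 0.32 (adjusted p = 0.162 and 0.0632), and in the mutant every CD71-positive array of both lay below every CD71-negative one. In wild type their groups overlapped, at 0.01 ± 0.30 and 0.38 ± 0.32 (adjusted p = 0.984 and 0.447). Hist2h3c1 was detected on only 1 of 3 mutant and 2 of 3 wild-type CD71-negative arrays, although these arrays read 7.94 to 9.47.

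Of the 10 tested H4 genes, 2 were higher in mutant and 3 in wild-type CD71-positive cells, and 0 were lower in either. The shares of all tested genes that were higher were 14.5% in the mutant and 12% in wild type. The H4 medians were 0.07 in the mutant and 0.07 in wild type. Hist1h4j (H4c11) read 7.0, 7.13 and 6.74 in mutant CD71-positive cells, against 6.04, 5.91 and 6.04 in mutant CD71-negative cells. It read 7.48, 6.54 and 6.27 in wild-type CD71-positive cells, against 5.65, 5.64 and 5.56 in wild-type CD71-negative cells. No array of one subset reached the range of the other, and the differences were 0.96 ± 0.26 in the mutant (adjusted p = 0.0205) and 1.15 ± 0.26 in wild type (adjusted p = 0.0101). Hist1h4i (H4c9) read 6.84, 6.73 and 6.20 in mutant CD71-positive cells, against 6.28, 5.69 and 5.76 in mutant CD71-negative cells. It read 6.85, 6.24 and 6.33 in wild-type CD71-positive cells, against 5.59, 5.64 and 5.58 in wild-type CD71-negative cells. The first mutant CD71-negative array overlapped, and the differences were 0.68 ± 0.22 in the mutant (adjusted p = 0.0464) and 0.87 ± 0.22 in wild type (adjusted p = 0.0191). Of 22 alternatives 13 ended the mutant call of Hist1h4i and 2 the wild-type call.

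Hist1h4f read 6.05, 6.05 and 6.17 in mutant CD71-positive cells, against 5.52, 5.58 and 5.67 in mutant CD71-negative cells. It read 6.45, 5.88 and 5.63 in wild-type CD71-positive cells, against 5.41, 5.49 and 5.47 in wild-type CD71-negative cells. Its differences of 0.50 ± 0.17 in the mutant (adjusted p = 0.0506) and 0.52 ± 0.17 in wild type (adjusted p = 0.0487) were alike in size and fell on either side of the threshold, and 15 of 22 alternatives ended the wild-type call. Hist1h4k read 5.64, 5.67 and 5.53 in mutant CD71-positive cells, against 5.54, 5.5 and 5.5 in mutant CD71-negative cells. It read 5.71, 5.58 and 5.55 in wild-type CD71-positive cells, against 5.62, 5.49 and 5.46 in wild-type CD71-negative cells, and neither difference passed (adjusted p = 0.218 in the mutant and 0.29 in wild type). The groups of Hist1h4k overlapped in both genotypes.

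Of the 3 tested H1 genes, 1 was lower in mutant CD71-positive cells and 0 passed in wild type. Hist1h1c (H1f2), a linker gene whose messenger RNA can also be polyadenylated, read 7.24, 6.87 and 7.24 in mutant CD71-positive cells, against 9.74, 9.18 and 8.03 in mutant CD71-negative cells. It read 6.71, 6.41 and 7.83 in wild-type CD71-positive cells, against 7.65, 6.96 and 8.02 in wild-type CD71-negative cells. In the mutant the groups did not overlap and Hist1h1c fell by 1.87 ± 0.49 (adjusted p = 0.0191), whereas in wild type they overlapped at a difference of -0.56 ± 0.49 (adjusted p = 0.473). The mutant call was lost without mutant CD71-negative array 1 (-1.49, adjusted p = 0.059), without mutant CD71-negative array 2 (-1.78, adjusted p = 0.062) or without mutant CD71-positive array 2 (-1.75, adjusted p = 0.0645). The difference between the genotypes' CD71 effects was -1.32 and did not pass (adjusted p = 0.929). Hist1h1a read 5.45, 5.43 and 5.42 in mutant CD71-positive cells, against 5.49, 5.46 and 5.44 in mutant CD71-negative cells. The wild-type values were 5.45, 5.51 and 5.42 in CD71-positive cells, against 5.42, 5.43 and 5.41 in CD71-negative cells. Hist1h1b read 5.52, 5.52 and 5.56 in mutant CD71-positive cells, against 5.43, 5.46 and 5.49 in mutant CD71-negative cells. In wild type they were 5.54, 5.44 and 5.53 in CD71-positive cells, against 5.39, 5.45 and 5.42 in CD71-negative cells. Both genes stayed near the lower end of the scale and passed in neither genotype.

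Within the variant class, 2 of 9 tested genes were higher in mutant and 3 of 9 in wild-type CD71-positive cells. This compares with 14.5% of all tested genes in the mutant and 12% in wild type. The variant medians were 0.03 in the mutant and 0.02 in wild type. H2afx (H2ax), whose product is phosphorylated at DNA breaks, read 9.03, 8.94 and 8.62 in mutant CD71-positive cells, against 6.79, 6.25 and 5.84 in mutant CD71-negative cells. It read 9.61, 9.97 and 9.34 in wild-type CD71-positive cells, against 6.36, 5.94 and 5.82 in wild-type CD71-negative cells. The subsets stood far apart, by 2.57 ± 0.26 in the mutant (adjusted p = 0.000101) and 3.6 ± 0.26 in wild type (adjusted p = 1.62e-05), folds of 5.92 and 12.2. H2afz, which encodes the H2A.Z found around transcription starts, read 10.71, 10.54 and 10.51 in mutant CD71-positive cells, against 8.91, 8.06 and 8.11 in mutant CD71-negative cells. It read 10.56, 10.15 and 10.62 in wild-type CD71-positive cells, against 7.32, 7.66 and 7.75 in wild-type CD71-negative cells. The differences were 2.23 ± 0.23 in the mutant (adjusted p = 0.000117) and 2.87 ± 0.23 in wild type (adjusted p = 3.35e-05), with no overlap in either genotype.

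The genes of H3.3, the H3 form deposited outside replication, did not pass. H3f3a read 9.55, 9.41 and 9.41 in mutant CD71-positive cells, against 9.69, 9.23 and 8.91 in mutant CD71-negative cells. The wild-type values were 9.31, 9.67 and 9.71 in CD71-positive cells, against 9.42, 9.11 and 9.18 in CD71-negative cells. Only 1 of the 3 wild-type CD71-negative arrays detected H3f3a, while all 3 arrays of each other group did. Here, as for Hist2h3c1, the deposited detection p did not follow the normalized level. H3f3b read 10.28, 9.91 and 10.43 in mutant CD71-positive cells, against 10.76, 10.69 and 10.64 in mutant CD71-negative cells. In wild type they were 10.45, 10.05 and 10.71 in CD71-positive cells, against 10.12, 10.56 and 11.09 in CD71-negative cells. Only the mutant arrays of H3f3b were separate, with CD71-positive below (-0.49 ± 0.25, adjusted p = 0.183). The macroH2A gene H2afy read 9.24, 9.05 and 8.44 in mutant CD71-positive cells, against 9.56, 9.28 and 8.99 in mutant CD71-negative cells. The wild-type values were 8.21, 9.20 and 8.52 in CD71-positive cells, against 9.77, 9.22 and 8.72 in CD71-negative cells. Its groups overlapped in both genotypes (adjusted p = 0.48 in the mutant and 0.256 in wild type).

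The remaining variant genes read between 5.39 and 5.70 on all arrays, close to the lower end of the scale. They were the linker variants H1f0, H1fnt, which is known from the testis, and H1fx, and H2afj, an H2A variant. H1f0 read 5.45, 5.43 and 5.47 in mutant CD71-positive cells, against 5.41, 5.49 and 5.52 in mutant CD71-negative cells. In wild type they were 5.56, 5.40 and 5.61 in CD71-positive cells, against 5.39, 5.42 and 5.70 in CD71-negative cells. H1fnt was detected on 3 arrays and read 5.40 to 5.53 in mutant CD71-positive cells, against 5.39 to 5.42 in mutant CD71-negative cells, and 5.43 to 5.44 in wild-type CD71-positive cells, against 5.41 to 5.46 in wild-type CD71-negative cells. H1fx, detected on 4 arrays, read 5.58, 5.52 and 5.47 in wild-type CD71-positive cells, against 5.45, 5.43 and 5.43 in wild-type CD71-negative cells, none of which detected it, and was at least 1.06-fold higher (adjusted p = 0.0393). All 4 arrays that detected H1fx were CD71-positive, and it passed under 7 of 21 alternatives. Its mutant arrays read 5.45, 5.41 and 5.45 in CD71-positive cells, against 5.39, 5.41 and 5.40 in CD71-negative cells. H2afj read 5.57, 5.57 and 5.56 in mutant CD71-positive cells, against 5.62, 5.54 and 5.51 in mutant CD71-negative cells. The wild-type values were 5.48, 5.51 and 5.53 in CD71-positive cells, against 5.43, 5.54 and 5.53 in CD71-negative cells. Apart from H1fx in wild type, none of these 4 genes passed in either genotype.

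**Figure D3:**
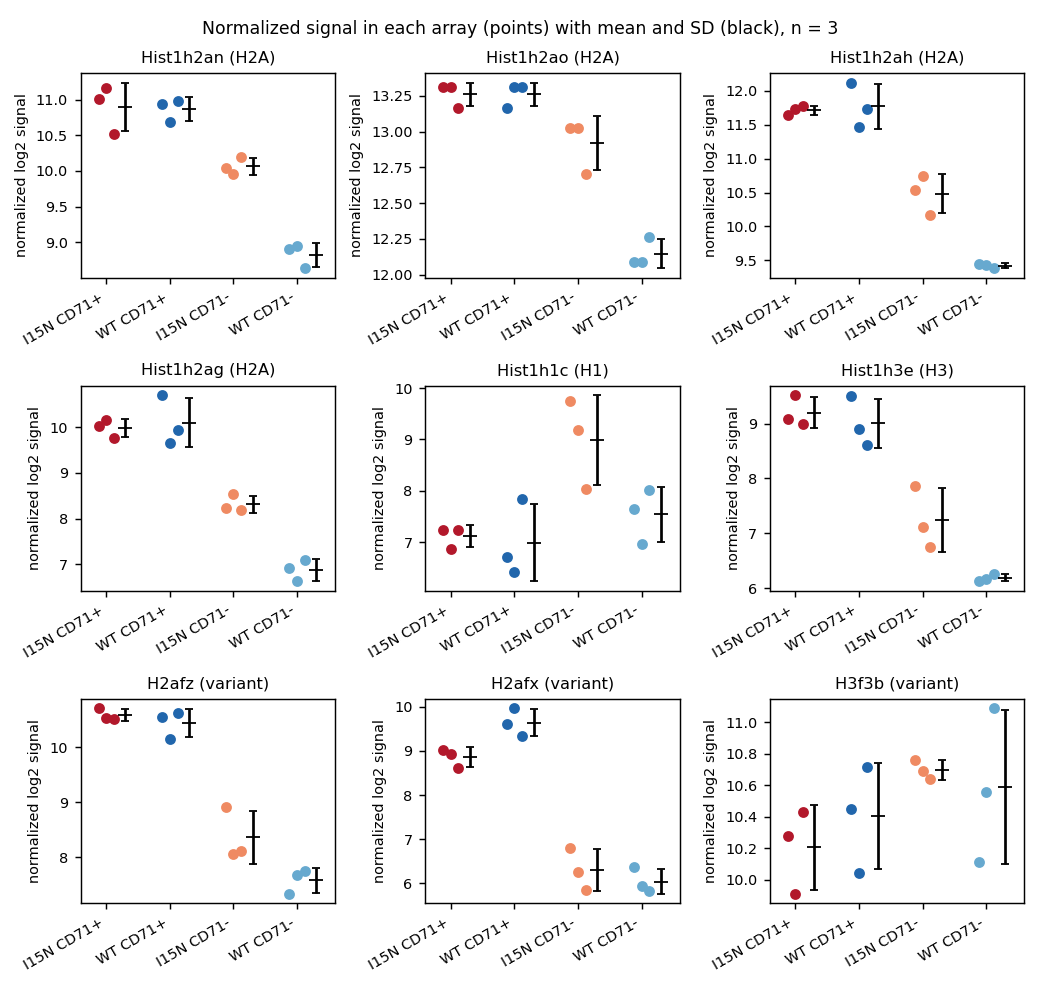
Normalized log2 signal of 9 histone genes on each array (points, 3 per group), with the group mean and SD in black; each panel has its own scale, I15N marks the mutant and WT the wild type. Hist1h2an, Hist1h2ao, Hist1h2ah and Hist1h2ag have mutant CD71-negative arrays between the wild-type CD71-negative and the CD71-positive arrays, while H2afx is lower in mutant than in wild-type CD71-positive cells and Hist1h1c has its highest arrays in mutant CD71-negative cells.

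Many genes of DNA replication and of histone deposition were also higher in the CD71-positive subset. Of 35 tested genes of DNA replication, 33 were higher in mutant and 30 in wild-type CD71-positive cells and 0 were lower, against the shares of all tested genes given above. Mcm10, a replication initiation factor, was higher by 2.86 ± 0.08 in the mutant and by at least 6.26-fold in wild type, where CD71-negative cells did not detect it. The helicase subunit gene Mcm6 differed by 2.73 ± 0.09 in the mutant and 2.70 ± 0.09 in wild type, and the ribonucleotide reductase gene Rrm1 by 3.24 ± 0.14 in the mutant and 3.28 ± 0.14 in wild type. Rfc5 and Rfc2, clamp loader subunits, were higher by 1.98 and 1.39 in the mutant and by 1.93 and 1.75 in wild type, and the polymerase gene Pold1 by 2.82 in the mutant and 2.5 in wild type.

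Of 23 tested chaperone and deposition genes, 13 were higher and 0 lower in mutant CD71-positive cells, and 13 were higher and 1 lower in wild-type CD71-positive cells. The shares of all tested genes were 14.5% higher and 14.3% lower in the mutant, and 12% higher and 13.1% lower in wild type. Cenpa, the centromeric H3, differed by 2.71 ± 0.22 in the mutant and 3.97 ± 0.22 in wild type. The gene lower in wild type was Supt6h, an elongation factor and H3-H4 chaperone, at -0.54 ± 0.15 (adjusted p = 0.0304). In the mutant Nap1l1, an H2A-H2B chaperone, was higher by 1.93, Nasp, an H3-H4 chaperone, by 1.70 and Anp32e, which removes H2A.Z, by 1.06. In wild type these 3 genes were higher by 1.86, 1.39 and 1.54. The chromatin assembly factor genes Chaf1a and Chaf1b were higher by 2.09 and 2.19 in the mutant and by 2.17 and 1.79 in wild type. Of 23 tested genes of histone transcription and 3′ end processing, 6 were higher in the mutant and 5 in wild type, and 0 were lower. That stands against the same 14.5% and 12% of all tested genes higher. The medians of this list were small, at 0.05 in the mutant and 0.06 in wild type. E2f1, an activator of S phase genes, was higher by 2.64 ± 0.05 in the mutant and 2.34 ± 0.05 in wild type, and Nfyb, an NF-Y subunit gene, by 0.97 in the mutant and 0.64 in wild type. The S phase kinase gene Cdk2 was higher by 1.10 in the mutant and 1.11 in wild type, and Ccne2, a cyclin E gene, by 0.67 in the mutant and 0.82 in wild type. Ccne1, the other cyclin E gene, was undetected in CD71-negative cells and was at least 1.045-fold higher in the mutant and at least 1.052-fold higher in wild type. Slbp, whose product binds the histone stem-loop, was detected on no array.

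Of 12 tested markers of myeloid and dendritic cells, 8 were higher in mutant CD71-positive cells, against 14.5% of all tested genes, and 0 passed in wild type, against 12%. All 12 lay above 0 in both genotypes, with medians of 0.66 in the mutant and 0.25 in wild type. In 9 markers in the mutant and 8 in wild type the CD71-positive arrays all lay above the CD71-negative ones. Among all tested genes 21.7% did so in the mutant and 18.7% in wild type. The difference between the genotypes' CD71 effects passed for 0 of the 12. Their summed log2 level ran from 10.24 to 11.62 in mutant CD71-positive cells, against 9.87 to 9.96 in mutant CD71-negative cells, and from 9.92 to 10.29 in wild-type CD71-positive cells, against 9.64 to 9.78 in wild-type CD71-negative cells. Lyz1 and Itgax were detected in no group. Of 16 markers on the array, 13 were detected on at least 1 mutant CD71-positive array and 12 on at least 1 wild-type CD71-positive array. For CD71-negative cells these numbers were 12 in the mutant and 6 in wild type. A marker may thus have entered the test through the group in which it is high, so the directions are not independent of the filter. Of 12 tested markers of double-positive thymocytes, 10 were lower in mutant CD71-positive cells, and 9 were lower and 1, Ptcra, higher in wild-type CD71-positive cells. Among all tested genes 14.3% were lower in the mutant, and 13.1% were lower and 12% higher in wild type. Of 3 tested epithelial and stromal markers 1 was lower in each genotype, the 1 tested B cell marker was lower in the mutant, and 0 of 10 erythroid markers were bright enough to be tested. What part these have in the histone values was not tested.

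**Figure D4:**
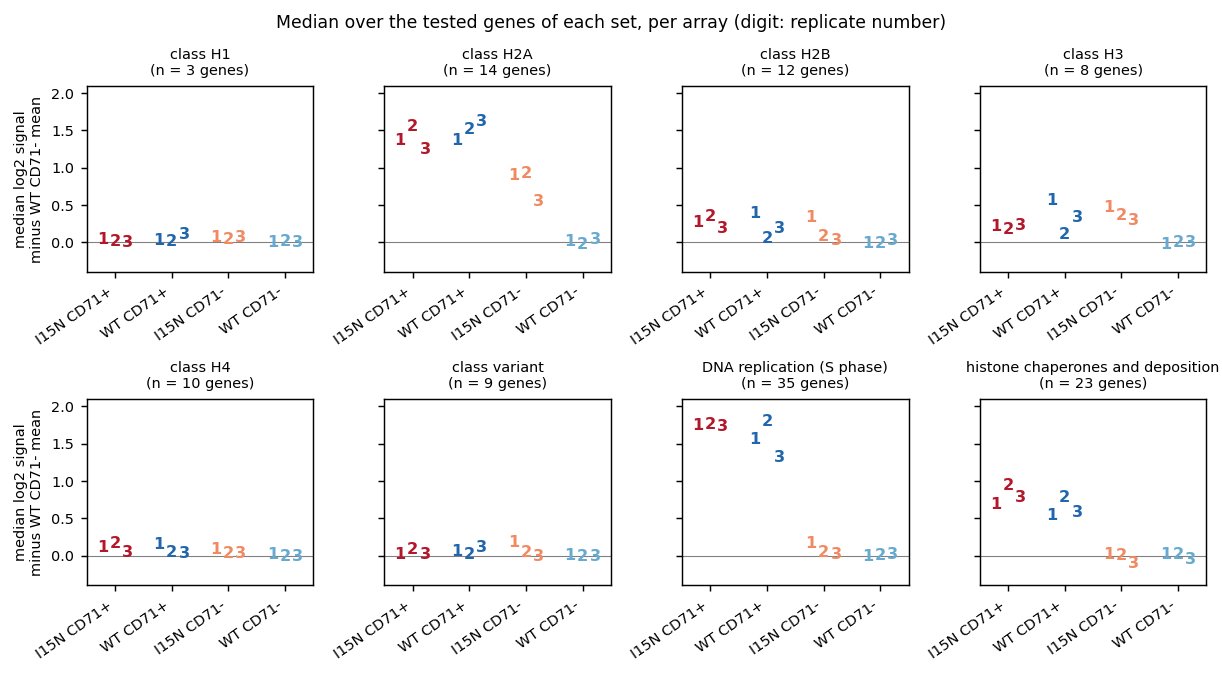
Median over the tested genes of each histone class and of the replication and chaperone lists on every array (digits are replicate numbers), as log2 signal minus the wild-type (WT) CD71-negative mean; I15N marks the mutant. In H2A the 3 mutant CD71-negative arrays stand at 0.55 to 0.92, between the wild-type CD71-negative and the CD71-positive arrays. For DNA replication the same arrays stand at 0.02 to 0.16. Of 37 replication genes on the array, 20 were detected on all 3 wild-type CD71-negative arrays. Of the 14 tested H2A genes, 10 were detected on all 12 arrays. The offset understates changes of dim genes, so heights are not compared between panels.

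Between genotypes in CD71-negative cells, Hist1h2an, Hist1h2ao and Hist1h2ah, all of the H2A class, were higher in the mutant and 0 histone genes were lower. That is 3 of 56 tested genes (5.36%), against 0.279% higher, 0.146% lower and 0.424% in either direction of all 8247. All 3 belong to the 29 genes detected on every array, and among 4023 such genes 0.472% were higher. Of the 56 tested genes 47 had a difference above 0, with a median of 0.11, against a median of -0.00071 over all tested genes. Among the 29 genes detected on every array 27 lay above 0, with a median of 0.67, against -0.015 over all genes detected on every array. In 29 of 56 genes the 3 mutant arrays all lay above the 3 wild-type arrays, and in 1 they all lay below, against 7.53% and 6.98% of all tested genes.

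All 14 tested H2A genes had a difference above 0 in CD71-negative cells, with a median of 0.81, and in 10 of them the mutant arrays lay above the wild-type arrays. For Hist1h2an the lowest of the 3 mutant arrays was 9.96 and the highest of the 3 wild-type arrays 8.95, a difference of 1.24 ± 0.16 or 2.36-fold (adjusted p = 0.0163). For Hist1h2ao the corresponding arrays were 12.70 in the mutant and 12.27 in wild type, a difference of 0.77 ± 0.09 or 1.71-fold (adjusted p = 0.014). For Hist1h2ah they were 10.17 in the mutant and 9.45 in wild type, a difference of 1.06 ± 0.17 or 2.09-fold (adjusted p = 0.0396). Each of these genes therefore separated the genotypes on all 6 arrays. The other H2A genes of this size did not pass: Hist1h2ag differed by 1.44 ± 0.25 (adjusted p = 0.0539), Hist1h2ad by 1.24 ± 0.24 (adjusted p = 0.0692), Hist1h2af by 0.97 ± 0.20 (adjusted p = 0.0817), Hist2h2ac by 0.75 ± 0.13 (adjusted p = 0.0543), Hist1h2ak by 0.86 ± 0.21 (adjusted p = 0.143) and Hist2h2ab by 0.86 ± 0.28 (adjusted p = 0.263). The 5 remaining H2A genes differed by 0.03 to 0.20 and did not pass either.

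The calls depended on the choice of arrays to a degree that differed by gene. Hist1h2an and Hist1h2ao each lost their call when 1 of the 12 arrays was left out and kept it for the others. Without wild-type CD71-negative array 1, the dimmest of the 12, 0 histone genes passed, and Hist1h2an stood at 1.27 (adjusted p = 0.0659) and Hist1h2ao at 0.74 (adjusted p = 0.0577). Hist1h2ah lost its call when any of 9 of the 12 arrays was left out, with an adjusted p of up to 0.133 and differences of 0.93 to 1.08. Without wild-type CD71-negative array 3, wild-type CD71-positive array 1 or mutant CD71-negative array 3, 5 histone genes passed. Cyclic loess in place of quantile normalization left 0 genes past the threshold. Hist1h2an then stood at 1.10 (adjusted p = 0.0982), Hist1h2ah at 0.93 (adjusted p = 0.111) and Hist1h2ao at 0.75 (adjusted p = 0.335). How far the top of the quantile-normalized scale shapes the SE of Hist1h2ao was not tested.

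Outside H2A, 0 genes passed in CD71-negative cells. Of the H2B genes 10 of 12, of the H3 genes 6 of 8, of the H4 genes 8 of 10, of the H1 genes 3 of 3 and of the variant genes 6 of 9 had a difference above 0. The largest were Hist1h1c at 1.45 ± 0.49 (adjusted p = 0.297), Hist1h3e at 1.05 ± 0.30 (adjusted p = 0.203), Hist2h3c1 at 0.95 ± 0.32 (adjusted p = 0.286), Hist1h3d at 0.86 ± 0.35 (adjusted p = 0.417), Hist1h2bf at 0.85 ± 0.37 (adjusted p = 0.471) and H2afz at 0.78 ± 0.23 (adjusted p = 0.222). In all 6 the mutant arrays lay above the wild-type arrays, and the spread between arrays was wide for the size of the difference. Hist2h3c1 passed the detection limit on only 1 of 3 mutant and 2 of 3 wild-type CD71-negative arrays. At an unadjusted p under 0.05, 16 histone genes were higher and 0 lower, against 10.4% of all tested genes in either direction.

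One library weighed on these values. Mutant CD71-negative array 1 was the highest of its group in 8 of 12 H2B, 7 of 10 H4 and 6 of 9 variant genes, and in 6 of 14 H2A genes, where array 2 was the highest as often. Without it Hist1h2an was 1.25 higher (adjusted p = 0.0486), Hist1h2ao 0.72 (adjusted p = 0.0435) and Hist1h2ah 1.03 (adjusted p = 0.109). The H2B gene Hist1h2bf then stood at 0.37, Hist1h2bh at 0.12, the H3 gene Hist1h3d at 0.55 and H2afz at 0.50. The replication list had its highest median on the same array, 0.16, with 0.05 and 0.02 on the other mutant CD71-negative arrays.

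In the replication list 0 of 35 genes passed between genotypes in CD71-negative cells, with a median of 0.08 and 32 of 35 genes above 0. In 14 of the 35 the 3 mutant arrays all lay above the 3 wild-type arrays and in 0 all below, against the 7.53% and 6.98% of all tested genes. Among its named genes Rfc2 differed by 0.46 ± 0.08 (adjusted p = 0.066), Mcm6 by 0.18, Rrm1 by 0.22 and Pold1 by 0.02, and Mcm10, undetected in wild type, was at least 1.09-fold higher (adjusted p = 0.652). No chaperone gene passed, with Cenpa at 1.06 ± 0.22 (adjusted p = 0.0887), Anp32e at 0.28, Chaf1b at 0.21 and Nasp at 0.04. No gene of the transcription and processing list passed, with E2f1 at 0.21 ± 0.05 (adjusted p = 0.132) and Nfyb at -0.71 ± 0.19 (adjusted p = 0.189). None of the 12 myeloid and dendritic markers and none of the 12 double-positive thymocyte markers passed here. The summed myeloid level, given above, did not overlap between mutant and wild-type CD71-negative cells, and its part in the result was not tested.

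**Figure D5:**
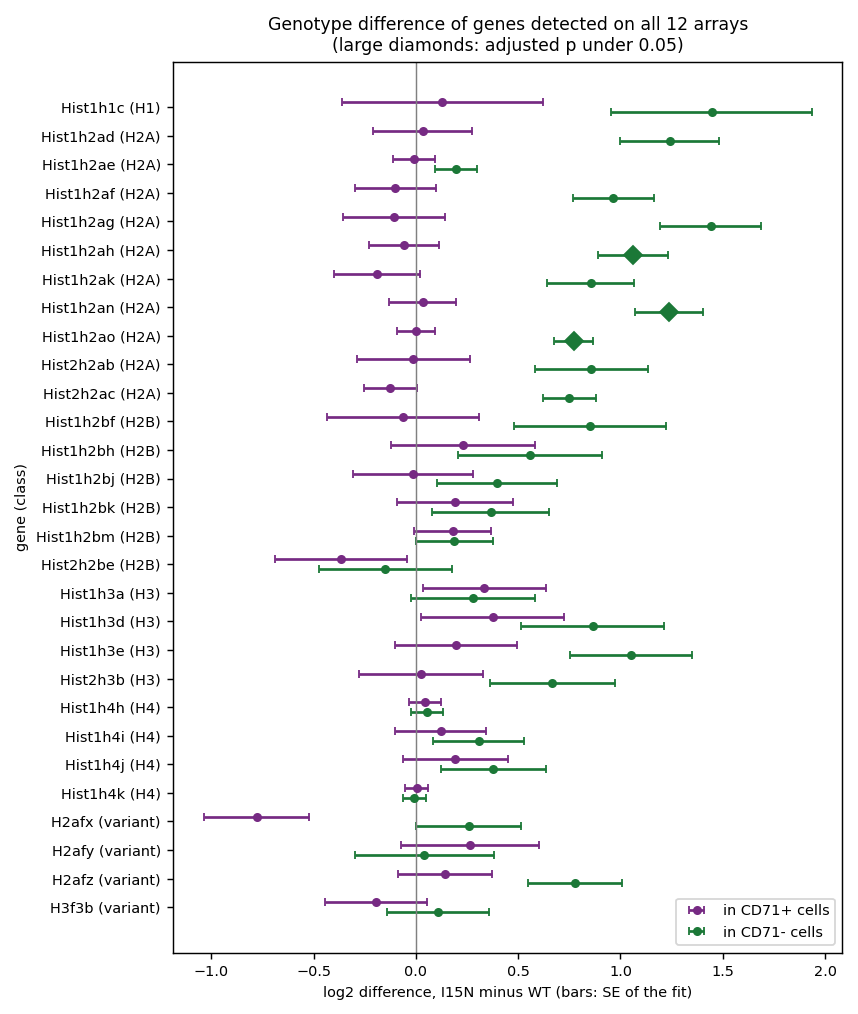
Genotype difference (mutant I15N minus wild type WT, log2, with the SE of the fit) of the 29 histone genes detected on all 12 arrays, in CD71-positive (purple) and CD71-negative cells (green); large diamonds mark an adjusted p under 0.05. In CD71-negative cells 27 of 29 genes lie above 0, and in CD71-positive cells 16 of 29.

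In CD71-positive cells limma called 0 of 56 histone genes in either direction, against 0.291% higher, 0.133% lower and 0.424% in either direction of all tested genes, and 2 were lower at an unadjusted p under 0.05, against 8.55% of all tested genes in either direction. The median difference was 0.0044, with 30 genes above 0 and 26 below. In 2 genes the mutant arrays lay above the wild-type arrays and in 3 below, against 7.25% and 7.35% of all tested genes. The H2A class had a median of -0.01, and Hist1h2an differed by 0.03 (95% interval -0.34 to 0.40), Hist1h2ah by -0.06 (-0.45 to 0.33) and Hist1h2ag by -0.11 (-0.67 to 0.45). Hist1h2ao had equal group means, with 2 arrays of each genotype at the top of the scale (95% interval -0.21 to 0.21). H2afx was the variant gene with the lowest value, below wild type on all 3 mutant arrays, at -0.78 ± 0.26 (adjusted p = 0.356), and H1fx differed by -0.09 ± 0.03 (adjusted p = 0.309).

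Among the lists, E2f1 rose in mutant CD71-positive cells by 0.50 ± 0.05 (adjusted p = 0.00666), the 1 gene of the transcription and processing list past the threshold there. No replication gene and no chaperone gene passed. The replication list had a median of 0.19 with 32 of 35 genes above 0, and the chaperone list held values of 0.61 ± 0.13 for Chaf1b (adjusted p = 0.109) and 0.35 ± 0.10 for Nasp (adjusted p = 0.271). All 12 tested myeloid and dendritic markers had a difference above 0 in CD71-positive cells and 0 passed. The limit of the detection filter given above for these markers applies here as well.

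Averaged over both subsets, Hist1h2an was higher in the mutant by 0.64 ± 0.12 (adjusted p = 0.0463) and Hist1h2ao by 0.39 ± 0.07 (adjusted p = 0.0414), which is 2 of 56 histone genes higher and 0 lower, against 0.594% and 0.315% of all tested genes, or 0.909% in either direction. E2f1 was higher by 0.36 ± 0.03 (adjusted p = 0.00226). Hist1h2an passed under 6 of 21 alternatives and Hist1h2ao under 5, and cyclic loess, the authors' values or no filter on dim genes left neither. Leaving out 1 array changed the count to between 0 and 6, with 0 for 8 of the 12 arrays and 6 without wild-type CD71-positive array 1.

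The genotype difference in CD71-positive cells minus that in CD71-negative cells passed for 0 of 56 histone genes, against 0.0121% of all tested genes. It lay below 0 in 46 of 56 genes and in 14 of 14 H2A genes, and at an unadjusted p under 0.05, 10 genes were below 0 and 0 above, against 5.65% of all tested genes. Hist1h2ao, whose value here is its CD71-negative difference with the sign turned because its CD71-positive group means are equal at the top of the scale, stood at -0.77 ± 0.13, and Hist1h2an at -1.20 ± 0.23 (adjusted p = 0.239 for each), Hist1h2ah at -1.12 ± 0.24 (adjusted p = 0.329) and Hist1h2ag at -1.55 ± 0.35 (adjusted p = 0.338). The genotype effects of these genes are therefore not shown to differ between the subsets. This difference, the genotype comparison in CD71-negative cells and the CD71 comparison in wild type all use the wild-type CD71-negative arrays, and their values are not independent of each other.

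Several H2A and H2B genes lie head to head, with a short gap between their starts in RefSeq annotation of GRCm38.p6. In 5 such pairs both genes were tested. Hist1h2ag and Hist1h2bj, 248 bases apart, differed between wild-type CD71-positive and CD71-negative cells by 3.22 and 1.47, and between mutant and wild-type CD71-negative cells by 1.44 and 0.39. Hist1h2ah and Hist1h2bk, 177 bases apart, differed by 2.35 and 1.55 in the first comparison and by 1.06 and 0.36 in the second. Hist1h2ak and Hist1h2bn, 163 bases apart, differed by 2.23 and 0.56, and by 0.86 and 0.20. Hist1h2ad and Hist1h2bf, 173 bases apart, differed by 2.15 and 2.25, and by 1.24 and 0.85, where the values of the pair were closest between subsets. Hist1h2ae and Hist1h2bg, 179 bases apart, differed by 0.22 and 0.05, and by 0.20 and 0.11. Each value belongs to its own entry on the array, and the sizes of different entries were not compared by a test. In wild-type CD71-negative cells the H2B genes of these pairs had means of 5.48 to 6.01, near the lower end of the scale. The H2A genes had means of 5.63 to 9.96, in each pair above the H2B gene. The offset understates changes of dim genes, and its part in these values was not tested.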

How the data were processed

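Intensities and detection p-values of 18138 symbols on 12 arrays were taken from the authors' deposited non-normalized table, per the file headers. Each symbol has 1 entry, and the sources used here do not say how probes were combined. RMA is named in the submitters' processing notes, and a second deposited table of intensity values served as an alternative. Columns were matched to samples by name, and 0 columns of other samples were present. The brightest array had 2.13-fold the mean signal of the dimmest, and 3 arrays per group limit the precision.

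The neqc function of limma 3.58.1, run in R 4.3.3, subtracted a background inferred from detection, added an offset of 16, applied quantile normalization and took log2. Tests covered genes detected (p under 0.05) on 3 or more arrays. One lmFit model held the 4 group means of all 12 arrays, with 8 residual degrees of freedom and eBayes without trend. Tests were two-sided and adjusted by Benjamini and Hochberg over 8247 genes within each of 6 contrasts, at an adjusted p under 0.05. The fit was tested on simulated data. Signals are compared for 1 entry at a time.

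The histone genes, the pathway and marker lists and the rule for named genes were chosen with earlier results of these data known. The rule names every histone gene past the threshold in a genotype contrast, every tested variant gene, up to 4 genes of each other class with the smallest p between wild-type subsets, up to 6 genes of each pathway list by the same p, and every list gene past the threshold in a genotype contrast. Other genes are named beyond it in places, chosen after their values were seen. Alternatives were background correction, cyclic loess, the authors' values, the filter on dim genes, trend and robust eBayes, array weights, the replicate number as a block, fits to the compared groups alone and leaving out each array. A background taken from genes with a detection p over 0.5 was chosen after seeing the data. Promoters came from RefSeq annotation of GRCm38.p6.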

Additional observations from a re-analysis of the deposited data

Results flagged for a closer look

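Hist2h2ac, an H2A gene of the chromosome 3 cluster, was singled out because its normalized mutant arrays lay all below wild type in CD71-positive cells and all above in CD71-negative cells. How many of all tested genes have this pattern was not counted. In CD71-positive cells its mutant arrays read 12.88, 13.03 and 12.97, all below the wild-type arrays at 13.08 each, and in CD71-negative cells its mutant arrays read 12.40, 12.56 and 12.19, all above the wild-type arrays at 11.81, 11.77 and 11.32. In CD71-positive cells the difference was only -0.13 ± 0.13 and did not pass (adjusted p = 0.961). The 3 equal wild-type values there are the same rank of the quantile-normalized scale. Before normalization the CD71-positive signals overlapped, at 9811, 7361 and 10380 in the mutant and 14047, 7479 and 9727 in wild type. The genotype difference in CD71-positive cells minus that in CD71-negative cells was -0.87 ± 0.18, and this interaction term did not pass (adjusted p = 0.31). The CD71-positive values lie near the top of the scale at 13.31, and the part of that ceiling was not tested.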

How the results depend on the processing

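The alternatives were followed for differences of histone genes that passed the threshold or were at least 0.5 in size in the main fit. Counted once per gene, contrast and alternative, 0 reversed, 1891 stayed on their side of the threshold, 175 fell short of it and 64 passed it newly. Smaller differences were not followed, so the absence of reversals holds only for the differences selected in this way. The count of 26 histone genes past the threshold between mutant subsets became 16 with cyclic loess and 40 with array weights, and 17 to 28 when 1 array was left out. The count in wild type stayed between 20 and 26 when 1 array was left out. Between genotypes in CD71-negative cells, 3 genes became 0 with cyclic loess or only the arrays of the groups compared, 5 with the stricter filter (detection p under 0.01 on at least 6 arrays), 7 with trend and robust eBayes, 10 with array weights, 8 with the background from dim genes, and 0 to 5 without 1 array. Averaged over subsets, 2 genes became 0 with cyclic loess, the authors' values, no filter or the replicate block, 1 with trend and robust eBayes or the background from dim genes, 5 with array weights, and 0 to 6 without 1 array. The difference between subsets called 5 genes with array weights and 0 to 0 without 1 array. In CD71-positive cells the count stayed at 0 under every alternative run. The causes of these changes were not tested. Hist1h2an passed in CD71-negative cells under 19 of 22 alternatives (1.05 to 1.30), Hist1h2ao under 18 (0.69 to 0.88) and Hist1h2ah under 9 (0.90 to 1.22). Replicate numbers were treated as names only in the main fit. Of 18 same-number pairs, 11 correlated above 0.1 (r from -0.405 to 0.586), and other pairs had r from -0.61 to 0.496. Of the 12 arrays, 7 correlated best with their own number. Whether arrays of the same number belong together was not tested, and these values do not settle it. With the replicate block the counts were 27 between mutant subsets, 22 between wild-type subsets, 3 in CD71-negative cells and 0 in CD71-positive cells, 0 for the average and 0 for the difference. The median of all tested genes moved by less than 0.1 under each scaling. Genes near the lower end of the scale have little room to fall, and genes near 13.31 little room to rise.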
